A study of Mus musculus with 12 samples.

Results

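Transcripts of 9 receptors through which B cells receive T cell help, cytokines and survival signals were measured in sorted splenic B cells. They were the cytokine receptor chains Il21r, Il4ra, Il2rg, Il6ra, Il6st and Il10ra, and the TNF receptor superfamily members Cd40, Tnfrsf13b (TACI) and Tnfrsf13c (BAFF receptor). The members were found by symbol and made up 9 of 43613 named genes, and all 9 passed the filter on low values (at least 1 FPKM, fragments scaled to transcript length and sequencing depth, in at least 3 libraries).

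The 12 libraries formed 4 groups of 3. Ifnar1KO GC and Ifnar1KO non-GC B cells came from mice of the genotype B6.Sle1b.IFNaR1-/-, and Sle1b GC and Sle1b non-GC B cells from B6.Sle1b mice. All mice were female, 6 months old, and bred on C57BL/6J, and all 4 groups carried Sle1b, a chromosomal interval known for lupus susceptibility. Germinal centre (GC) cells were sorted as live B220+ GL7+ CD95+ splenocytes and non-GC cells as live B220+ GL7- CD95- splenocytes. The labels name no cell type to which the Ifnar1 deletion is restricted, and mice without Sle1b were not analysed here. Cells were sorted from pools of splenocytes. Whether replicate libraries stem from different mice is not given, so p-values reflect only how these samples vary, and that variation may be technical. The design asks how these receptors differ between GC and other B cells, and what loss of the type I interferon receptor chain Ifnar1 changes in each.

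B cells in a germinal centre compete for help from T follicular helper cells, which deliver IL-21, IL-4 and CD40 ligand. IL-21 and IL-4 bind Il21r and Il4ra, each paired with the common gamma chain Il2rg, and signal through JAK kinases and STAT factors. Il6ra pairs with the signalling chain gp130, encoded by Il6st, and Il10ra pairs with Il10rb. CD40 recruits TRAF adaptors and activates NF-kB, and the BAFF receptor and TACI bind the survival factor BAFF, with TACI also binding APRIL.

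The 4 libraries of batch 3, which are replicate 3 of each group, stood apart from the other 8. They held 4209 to 7249 named genes at 1 FPKM or more, against 9480 to 11242 in batches 1 and 2, and the summed FPKM of 7 B cell markers was 23.2 to 257 against 1144 to 2190. In batches 1 and 2 the sort labels matched their markers: 7 germinal centre markers summed to 279 to 944 FPKM in GC libraries and 52.4 to 89.7 FPKM in non-GC libraries, and 7 resting B cell markers to 157 to 287 FPKM in GC libraries and 718 to 1152 FPKM in non-GC libraries. In batch 3 the germinal centre markers summed to 18.9 and 20.9 FPKM in the GC libraries and 18.8 and 20.7 FPKM in the non-GC libraries, so these markers did not separate the sorts there. The resting B cell markers did, with 21.0 and 17.1 FPKM in the GC libraries of batch 3 and 117 and 136 FPKM in the non-GC libraries, and the B cell markers themselves summed to 29.0 and 23.2 FPKM in those GC libraries and 257 and 215 FPKM in the non-GC libraries. Ifnar1 itself went against the genotype label in batches 1 and 2. It measured 14.1, 15.4 and a listed 0 FPKM in Ifnar1KO GC replicates 1, 2 and 3, 8.26, 9.89 and 6.90 FPKM in Sle1b GC, 51.4, 69.1 and 2.61 FPKM in Ifnar1KO non-GC, and 14.5, 36.1 and 3.38 FPKM in Sle1b non-GC. The FPKM covers the whole locus, including whatever sequence the deletion spared, and so does not check the deletion. The name Ifnar1KO refers below to libraries so labelled, and the labels alone carry each genotype comparison. One read on a locus of 1 kb was worth 0.158 to 0.407 FPKM in the 12 libraries. Results are given over all 3 batches and for batches 1 and 2 alone.

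Among the 9 receptors Tnfrsf13c had the highest FPKM in 11 of 12 libraries, the exception being Sle1b GC replicate 3, where Il6st was highest. In the 8 libraries of batches 1 and 2 it ranged from 122 FPKM in Sle1b GC replicate 1 to 553 FPKM in Sle1b non-GC replicate 2. Il2rg came second in 6 of those 8 libraries, and Il6ra and Il6st were the lowest pair in all 8. The other members, Il21r, Il4ra, Il10ra, Cd40 and Tnfrsf13b, lay between 20.2 and 55.0 FPKM in the 4 non-GC libraries of batches 1 and 2 and changed ranks from library to library, so no order among them held. In batch 3, 8 of 9 members were under 5 FPKM in the Ifnar1KO GC library, 6 in Sle1b GC, 7 in Ifnar1KO non-GC and 6 in Sle1b non-GC.

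**Figure D1:**
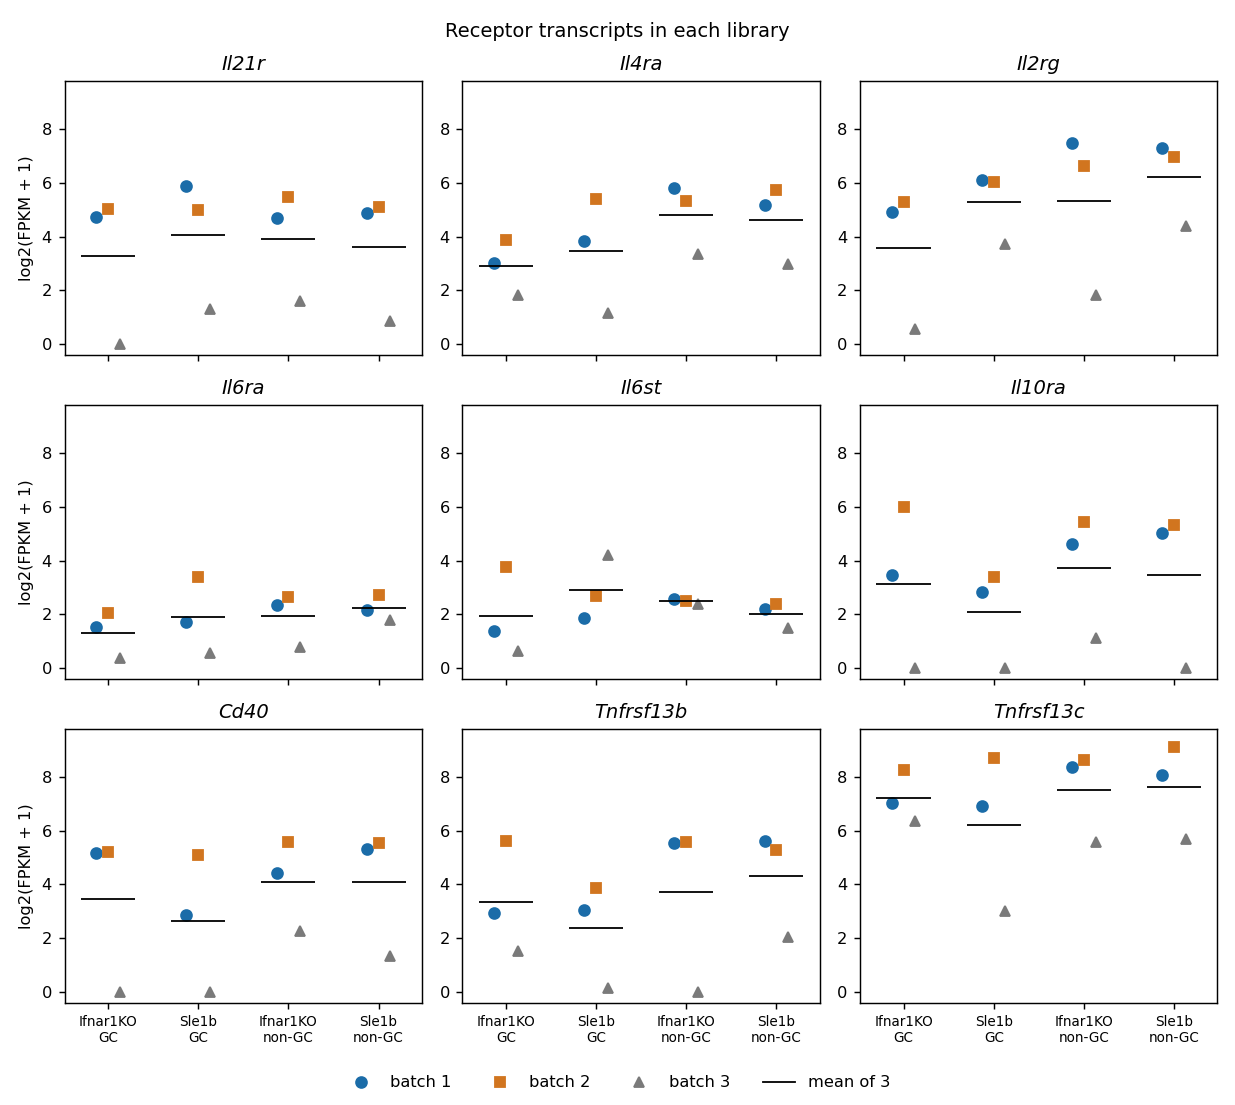
Level of each receptor on the log2(FPKM + 1) scale in each of the 12 libraries, by group. Circles are batch 1, squares batch 2, triangles batch 3, and the bar is the mean of 3 libraries. In batches 1 and 2, Il2rg lies lower in every GC library than in every non-GC library, and batch 3 lies below the other batches for nearly all members.

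Differences were tested with limma on log2(FPKM + 1) with batch as a block, and p-values were adjusted by Benjamini-Hochberg over 14595 genes. With a threshold of 0.05 on the adjusted p, 0 of 9 members were called in each of the 5 comparisons: GC against non-GC in Ifnar1KO (0.0206% of all genes called) and in Sle1b (0.0%), Ifnar1KO against Sle1b in GC cells (0.0%) and in non-GC cells (0.0%), and their interaction (0.0%). At an unadjusted p under 0.05 the members counted 2 of 9 in Ifnar1KO GC against non-GC (12.5% of all genes), 3 of 9 in Sle1b GC against non-GC (9.32%), 1 of 9 in Ifnar1KO against Sle1b GC cells (6.3%), 0 of 9 in non-GC cells (1.8%) and 0 of 9 for the interaction (3.66%). In batches 1 and 2 alone, again 0 of 9 members were called (0.309% of 12283 genes in Ifnar1KO GC against non-GC, 0.057% in Sle1b, 0.0% in the other comparisons). The unadjusted counts there were 2 of 9 in Ifnar1KO (19.4%), 4 of 9 in Sle1b (13.8%), 2 of 9 in GC cells by genotype (8.8%), 0 of 9 in non-GC cells (1.67%) and 0 of 9 for the interaction (5.09%). The statements below on single receptors are therefore descriptions of values whose differences did not pass the test.

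GC cells held less transcript of the gamma chain family than non-GC cells for Il4ra and Il2rg, which were lower in every one of the 6 matched GC and non-GC pairs (same genotype, same batch), while Il21r was not. Those were 2 of 9 members with that pattern, against 5.84% of all genes. Batch 3 GC libraries were also low in Actb, at 11.5 FPKM in Ifnar1KO and 5.78 FPKM in Sle1b. Their non-GC partners held 110 and 120 FPKM of it. The log2 differences of Actb were 0.10, -0.87 and -3.15 in batches 1, 2 and 3 of Ifnar1KO. In Sle1b they were 0.12, -0.78 and -4.15. The part of this drop in the receptor pairs of batch 3 was not tested. Il4ra and Il21r are neighbours on chromosome 7 on the same strand, Il4ra from 125552282 to 125579472 and Il21r from 125603365 to 125634613 in GRCm38, and their GENCODE genes are 23954 bp apart. Il2rg shares its locus, on chromosome X from 101261288 to 101269926 on the minus strand, with the protein-coding genes Gm20489 and Gm614, so its value covers all 3.

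Il4ra, the chain that binds IL-4 and IL-13, measured 7.01, 13.7 and 2.55 FPKM in Ifnar1KO GC replicates 1, 2 and 3, against 55.0, 38.7 and 9.18 FPKM in Ifnar1KO non-GC. It measured 13.2, 41.8 and 1.21 FPKM in Sle1b GC, against 35.0, 51.7 and 6.92 FPKM in Sle1b non-GC. Both Ifnar1KO GC libraries of batches 1 and 2 lay below every non-GC library of those batches, whereas Sle1b GC replicate 2 lay among them. The log2 difference between GC and non-GC cells was -1.92 (SE 0.58, n = 3 per group) in Ifnar1KO (limma, adjusted p = 0.314, unadjusted 0.00561) and -1.16 (SE 0.58) in Sle1b (adjusted p = 0.557). Without batch 3 it was -2.12 (SE 0.54, adjusted p = 0.12) in Ifnar1KO and -0.82 (SE 0.54, adjusted p = 0.537) in Sle1b.

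Il2rg, the common gamma chain, measured 29.1, 38.3 and 0.46 FPKM in Ifnar1KO GC replicates 1, 2 and 3, against 180, 97.8 and 2.5 FPKM in Ifnar1KO non-GC. It measured 68.5, 63.8 and 12.3 FPKM in Sle1b GC, against 158, 124 and 20.2 FPKM in Sle1b non-GC. In batches 1 and 2 all 4 GC libraries, at 29.1 to 68.5 FPKM, lay below all 4 non-GC libraries, at 97.8 to 180 FPKM, and Il2rg was the 1 of 9 members with such a gap, which 8.76% of all genes showed. GC and non-GC cells differed by a log2 value of -1.73 (SE 0.67) in Ifnar1KO (limma, adjusted p = 0.343, unadjusted 0.023) and -0.94 (SE 0.67, adjusted p = 0.691) in Sle1b. Without batch 3 it was -1.96 (SE 0.42, adjusted p = 0.0989) in Ifnar1KO and -1.07 (SE 0.42, adjusted p = 0.313) in Sle1b.

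Il21r, the receptor for IL-21, measured 25.7, 31.9 and a listed 0 FPKM in Ifnar1KO GC replicates 1, 2 and 3, against 24.8, 43.4 and 2.04 FPKM in Ifnar1KO non-GC. It measured 58.8, 31.2 and 1.44 FPKM in Sle1b GC, against 28.2, 33.0 and 0.826 FPKM in Sle1b non-GC. GC and non-GC libraries overlapped in both genotypes, and the highest value was in Sle1b GC replicate 1. The log2 difference was -0.66 (95% interval -1.82 to 0.49; limma, adjusted p = 0.604) in Ifnar1KO and 0.46 (95% interval -0.70 to 1.61; adjusted p = 0.817) in Sle1b.

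The ratio of Il21r to Il4ra FPKM, looked at after the values were seen, exceeded that of the matched non-GC library in 5 of 6 pairs. The other pair was replicate 3 of Ifnar1KO, where Il21r was listed at 0 in GC cells and at 2.04 FPKM in non-GC cells, so that Il21r was the lower in GC cells relative to Il4ra, and also relative to Il2rg. The ratio was 3.66 and 2.33 in Ifnar1KO GC replicates 1 and 2, against 0.451 and 1.12 in Ifnar1KO non-GC, and 4.44, 0.746 and 1.19 in Sle1b GC replicates 1, 2 and 3, against 0.806, 0.638 and 0.119 in Sle1b non-GC. The gap was small in batch 2 of Sle1b, where both ratios were under 1. The ratio of Il2rg to Il21r lay below its non-GC partner in the same 5 pairs, at 1.14 and 1.2 in Ifnar1KO GC replicates 1 and 2, against 7.28 and 2.25 in Ifnar1KO non-GC. In Sle1b it was 1.16, 2.05 and 8.56 in GC replicates 1, 2 and 3, against 5.61, 3.76 and 24.5 in non-GC. These ratios carry no test. Both use Il21r, and Il4ra and Il2rg had already been seen to be lower in GC cells, so the ratios are not separate observations. In replicate 3 of Sle1b, Il21r stood at 5.42 reads per kb in GC and 4.49 in non-GC cells. Il4ra stood at 4.56 reads per kb in that GC library.

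**Figure D2:**
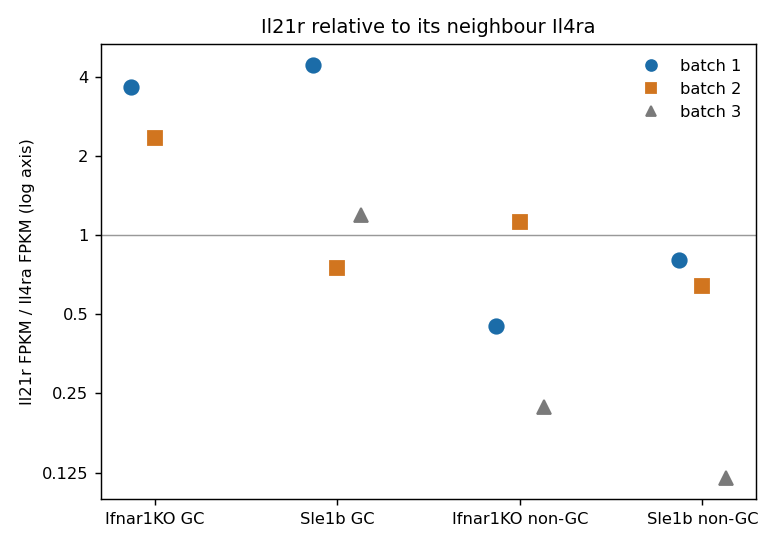
Ratio of Il21r to Il4ra FPKM in each library on a log axis, by group and batch, with the line at a ratio of 1. Ifnar1KO GC replicate 3 has no point because Il21r is listed at 0 there; GC ratios reach 3.66 and 4.44 in batch 1, against 0.451 and 0.806 in non-GC cells.

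The promoters of these 3 genes are shown because Il4ra and Il2rg were lower in GC cells together while the neighbour of Il4ra was not. Each is 300 bases, 250 before and 50 from the start of the RefSeq gene on, 5′ to 3′ on the strand of the gene (RefSeq, GRCm38.p6), and capitals mark the octamer ATGCAAAT, bound by the factors Oct-1 and Oct-2.
Il4ra, chr7:125552021-125552320, plus strand: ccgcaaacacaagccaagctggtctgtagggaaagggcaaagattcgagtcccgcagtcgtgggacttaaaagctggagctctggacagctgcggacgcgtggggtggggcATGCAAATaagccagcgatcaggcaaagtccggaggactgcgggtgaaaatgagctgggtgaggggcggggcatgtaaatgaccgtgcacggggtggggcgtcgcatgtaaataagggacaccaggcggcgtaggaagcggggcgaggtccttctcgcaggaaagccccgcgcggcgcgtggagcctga
Il21r, chr7:125603179-125603478, plus strand: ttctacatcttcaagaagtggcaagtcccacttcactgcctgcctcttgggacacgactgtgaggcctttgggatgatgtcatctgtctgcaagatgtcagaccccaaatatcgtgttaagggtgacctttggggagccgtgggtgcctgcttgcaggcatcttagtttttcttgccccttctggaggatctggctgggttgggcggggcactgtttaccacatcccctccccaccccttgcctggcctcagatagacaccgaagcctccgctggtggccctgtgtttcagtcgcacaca
Il2rg, chrX:101268206-101268505, minus strand: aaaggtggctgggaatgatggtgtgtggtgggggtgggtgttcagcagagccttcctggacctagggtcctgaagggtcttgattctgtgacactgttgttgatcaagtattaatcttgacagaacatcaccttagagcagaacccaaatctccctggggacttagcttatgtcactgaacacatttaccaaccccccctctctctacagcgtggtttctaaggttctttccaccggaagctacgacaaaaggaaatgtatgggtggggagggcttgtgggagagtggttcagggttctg
RefSeq promoters were found for 7 of the 9 members, and not used for Cd40 and Il10ra. Both strands of each were searched for 4 motifs chosen after the values were seen. The octamer was found in 1 of 7, Il4ra, with its first base at -139 from the start, and 1.74% of 32851 promoters of the same length hold it. The STAT motif TTCNNNGAA (8.3% of all promoters), the same motif with 1 more base in its spacer (6.95%), and the core of the interferon-stimulated response element (3.44%) were in 0 of 7. A match describes letters in this window only.

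The receptors of the IL-6 and IL-10 group had no direction between GC and non-GC cells that held over batches and genotypes. Il10ra, the ligand-binding chain for IL-10, on chromosome 9 from 45253127 to 45269149, measured 9.95, 62.3 and a listed 0 FPKM in Ifnar1KO GC replicates 1, 2 and 3, against 23.2, 42.7 and 1.15 FPKM in Ifnar1KO non-GC. It measured 6.17 and 9.54 FPKM in Sle1b GC replicates 1 and 2, against 31.8 and 38.9 FPKM in Sle1b non-GC, and was listed at 0 in replicate 3 of both. Sle1b GC cells were thus the lower in both batches that gave a value, and Ifnar1KO GC replicate 2 was the highest of all 12 libraries. On the log2 scale the difference was -0.57 (SE 0.62; limma, adjusted p = 0.705) in Ifnar1KO and -1.37 (SE 0.62; adjusted p = 0.524, unadjusted 0.0457) in Sle1b. Leaving batch 3 out gave -0.30 (SE 0.59, adjusted p = 0.804) in Ifnar1KO and -2.06 (SE 0.59, adjusted p = 0.208) in Sle1b. In Ifnar1KO GC replicate 2 the 5 plasma cell markers found summed to 115 FPKM, the highest of the 12 libraries. Of those markers, Sdc1 was listed at 0 there, and Prdm1, at 2.16 FPKM, and Irf4, at 42.1 FPKM, were not at their highest. The 8 myeloid markers summed to 30.3 FPKM in that library, within the 18.3 to 154 FPKM of batches 1 and 2. The part of plasma and myeloid cells in the Il10ra value was not tested.

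Il6st, the gp130 chain, on chromosome 13 from 112464070 to 112510086, stayed between 1.81 and 4.9 FPKM in the 6 non-GC libraries and spread more widely in GC cells. Levels were 1.56, 12.5 and 0.564 FPKM in Ifnar1KO GC replicates 1, 2 and 3, against 4.9, 4.63 and 4.25 FPKM in Ifnar1KO non-GC, and 2.64, 5.37 and 17.3 FPKM in Sle1b GC, against 3.63, 4.18 and 1.81 FPKM in Sle1b non-GC. One library per genotype carried the high GC value, and they were from different batches. In Sle1b GC replicate 3 the 8 T cell markers summed to 74.0 FPKM, the highest of the 12 libraries, with 4 of them at 0. The B cell markers summed to 23.2 FPKM there. In Ifnar1KO GC replicate 2 the T cell markers summed to 13.1 FPKM. The part of T cells in the Il6st values was not tested. The log2 difference was -0.56 (95% interval -2.25 to 1.12) in Ifnar1KO and 0.88 (95% interval -0.80 to 2.56) in Sle1b, with limma adjusted p of 0.772 and 0.75, and in batches 1 and 2 alone it was 0.03 in Ifnar1KO and -0.02 in Sle1b.

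Il6ra, the IL-6-binding chain, on chromosome 3 from 89862891 to 89914053, was under 10 FPKM in every library, with 1.86, 3.15 and 0.272 FPKM in Ifnar1KO GC, against 4.14, 5.34 and 0.7 FPKM in Ifnar1KO non-GC. It measured 2.3, 9.47 and 0.482 FPKM in Sle1b GC, against 3.41, 5.63 and 2.45 FPKM in Sle1b non-GC. GC cells were lower in all 3 batches of Ifnar1KO and in batches 1 and 3 of Sle1b, with log2 differences of -0.63 (95% interval -1.82 to 0.57; limma, adjusted p = 0.638) in Ifnar1KO and -0.33 (95% interval -1.52 to 0.87; adjusted p = 0.886) in Sle1b. The symbol covers 6 loci at the same coordinates, of which 2 had values above 0, and with the higher of them alone the difference in Sle1b changed sign, to 0.22.

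Of the TNF receptor superfamily members, all 3 lay lower in the Sle1b GC library than in its non-GC partner in each of the 3 batches. With Il4ra and Il2rg that made 5 of 9 members, against 14.3% of all genes. In batch 3 Actb was also lower in the Sle1b GC library than in its partner, by -4.15 on the log2 scale. In Ifnar1KO none of the 3 kept 1 direction over the 3 batches, but without batch 3 Tnfrsf13c was lower in both Ifnar1KO GC libraries than in their partners, as was Tnfrsf13b on its highest locus. Their interaction of genotype with sorted population did not pass the test (limma, adjusted p = 0.994 for each).

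Cd40, the receptor for CD40 ligand on T cells, on chromosome 2 from 165055627 to 165072948, measured 34.6, 36.1 and a listed 0 FPKM in Ifnar1KO GC replicates 1, 2 and 3, against 20.2, 46.5 and 3.81 FPKM in Ifnar1KO non-GC. It measured 6.27, 33.4 and a listed 0 FPKM in Sle1b GC, against 39.6, 46.0 and 1.55 FPKM in Sle1b non-GC. The low value of batches 1 and 2 was Sle1b GC replicate 1, and the other 7 libraries lay at 20.2 FPKM or more. That library, which also held the highest Il21r value, had 154 FPKM of summed myeloid markers, against 18.3 to 47.8 FPKM in the other 7, and 92.5 FPKM of summed erythroid and platelet markers, against at most 26.2 FPKM; their part in either value was not tested. The log2 difference was -0.62 (SE 0.63; limma, adjusted p = 0.682) in Ifnar1KO and -1.43 (SE 0.63; adjusted p = 0.52, unadjusted 0.042) in Sle1b. Batches 1 and 2 alone gave 0.20 (SE 0.58) in Ifnar1KO and -1.47 (SE 0.58, adjusted p = 0.315) in Sle1b.

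Tnfrsf13b, the receptor TACI, on chromosome 11 from 61126755 to 61150270, measured 6.55, 48.4 and 1.88 FPKM in Ifnar1KO GC replicates 1, 2 and 3, against 45.8, 47.7 and a listed 0 FPKM in Ifnar1KO non-GC. It measured 7.33, 13.5 and 0.117 FPKM in Sle1b GC, against 48.3, 38.1 and 3.18 FPKM in Sle1b non-GC. In batches 1 and 2, 3 of the 4 GC libraries were at 13.5 FPKM or less and the 4 non-GC libraries at 38.1 FPKM or more, with Ifnar1KO GC replicate 2, at 48.4 FPKM, as high as the highest of them. Summed over loci, the log2 difference was -0.36 (SE 0.72; limma, adjusted p = 0.848) in Ifnar1KO and -1.97 (SE 0.72; adjusted p = 0.475, unadjusted 0.0178) in Sle1b.

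The exception rested on 1 locus. The symbol covers 3 loci with the same coordinates, whose values were summed. In the mean over the tables of each library, the next locus reached 38.12 FPKM in Ifnar1KO GC replicate 2, whereas the other 5 GC libraries had 0 to 1.357 FPKM and the 6 non-GC libraries 0 to 18.35 FPKM. With the locus of the highest values alone, an alternative chosen after seeing the data, Tnfrsf13b measured 6.55 and 9.55 FPKM in Ifnar1KO GC replicates 1 and 2, against 40.0 and 30.5 FPKM in Ifnar1KO non-GC. It then measured 7.33 and 12.2 FPKM in Sle1b GC replicates 1 and 2, against 33.6 and 35.6 FPKM in Sle1b non-GC. On that locus all 4 GC libraries of batches 1 and 2 lay below all 4 non-GC libraries, which made 2 of 9 members with Il2rg, against 8.8% of all genes. The log2 difference in batches 1 and 2 was then -2.01 (SE 0.47; limma, adjusted p = 0.112) in Ifnar1KO and -1.77 (SE 0.47; adjusted p = 0.182) in Sle1b, and over all 3 batches it was -0.90 (SE 0.65) in Ifnar1KO and -1.81 (SE 0.65) in Sle1b.

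**Figure D3:**
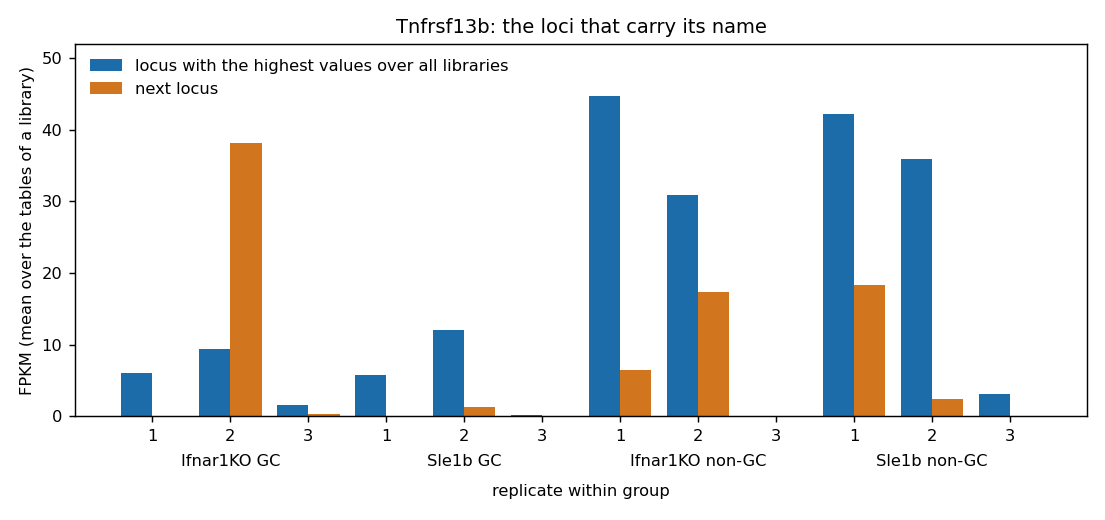
FPKM of the pair of loci named Tnfrsf13b that carry nearly all of its signal, in each library, as the mean over the tables that hold the library. The locus with the highest values is between 30.94 and 44.69 FPKM in the non-GC libraries of replicates 1 and 2 and at most 12.12 FPKM in GC libraries, and the next locus reaches 38.12 FPKM in Ifnar1KO GC replicate 2.

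Tnfrsf13c, the BAFF receptor, on chromosome 15 from 82221744 to 82224357, measured 129, 303 and 80.3 FPKM in Ifnar1KO GC replicates 1, 2 and 3, against 330, 397 and 47.7 FPKM in Ifnar1KO non-GC. It measured 122, 415 and 7.14 FPKM in Sle1b GC, against 269, 553 and 51.0 FPKM in Sle1b non-GC. GC cells were lower in 5 of 6 pairs, the exception being Ifnar1KO replicate 3, and the values of batch 2 exceeded those of batch 1 in all 4 groups. The log2 difference was -0.33 (SE 0.72; limma, adjusted p = 0.858) in Ifnar1KO and -1.41 (SE 0.72; adjusted p = 0.564) in Sle1b. Without batch 3 both genotypes gave a similar size, -0.87 (SE 0.43, adjusted p = 0.306) in Ifnar1KO and -0.78 (SE 0.43, adjusted p = 0.468) in Sle1b.

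**Figure D4:**
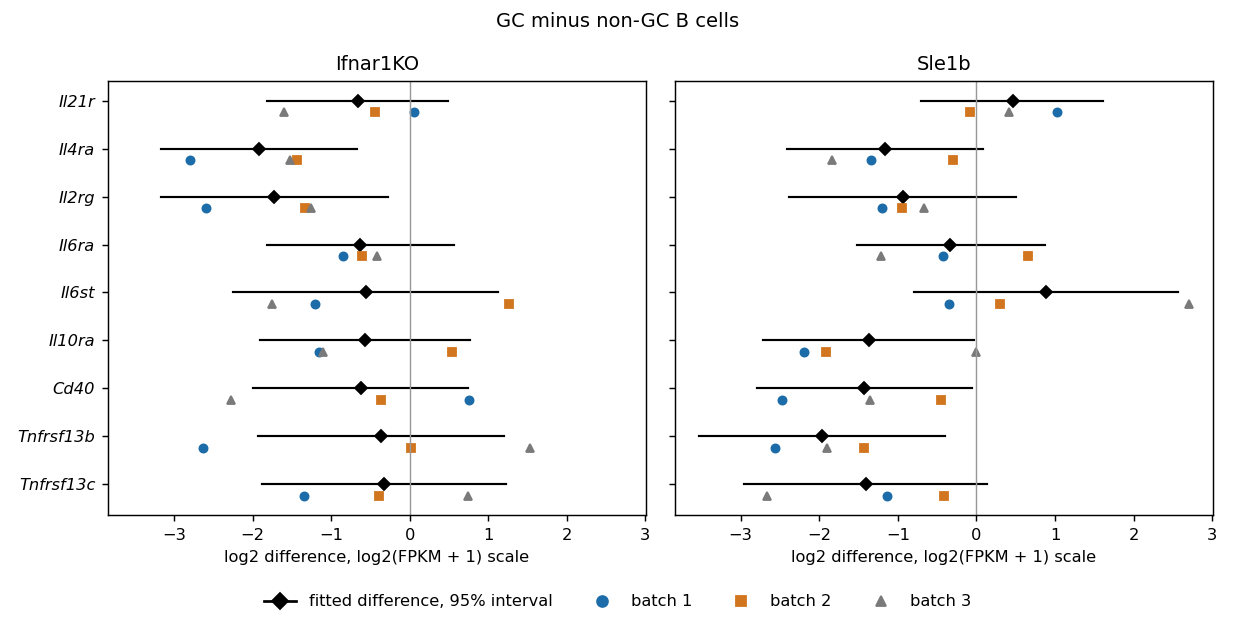
Log2 difference between GC and non-GC cells for each receptor on the log2(FPKM + 1) scale, in Ifnar1KO on the left and Sle1b on the right. Diamonds with lines are the limma estimate with its 95% interval, and the smaller symbols below them are the differences within batches 1, 2 and 3. Il4ra and Il2rg lie below 0 in every batch of both genotypes.

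Over the 9 receptors the median log2 difference between GC and non-GC cells was -0.62 in Ifnar1KO, against -0.40 for all 14595 genes, and -1.16 in Sle1b, against -0.12 for all genes. In Ifnar1KO all 9 members were below 0, as were 68.2% of all genes, and in Sle1b 7 of 9 were, as were 56.1% of all genes. The 7 B cell markers were all below 0 too, with medians of -1.19 in Ifnar1KO and -1.23 in Sle1b. In batches 1 and 2 alone the receptor medians were -0.73 in Ifnar1KO and -0.82 in Sle1b. Those of the B cell markers were -0.44 and -0.36 there, and those of all genes -0.52 and -0.16. Centring each library on its median moved the all-gene median to 0.08 in Ifnar1KO and 0.04 in Sle1b, and the median over the 9 receptors to -0.15 in Ifnar1KO and -1.01 in Sle1b. Tnfrsf13b and Tnfrsf13c in Ifnar1KO then changed sign, to 0.11 and 0.14. Relative to that centre the log2 difference of Il4ra was -1.44 in Ifnar1KO and -1.01 in Sle1b, and that of Il2rg -1.25 in Ifnar1KO and -0.78 in Sle1b. GC libraries also differed from non-GC libraries in other markers: besides the resting B cell markers above, 7 plasmacytoid dendritic cell markers summed to 64.9 to 139 FPKM in the GC and 109 to 212 FPKM in the non-GC libraries of batches 1 and 2, with 2 to 4 of them at 0 in GC and 0 to 2 in non-GC libraries. The part of these cells in the receptor values was not tested, and in bulk samples fewer cells of a type and less RNA per cell cannot be told apart.

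Between genotypes, Il2rg was lower in Ifnar1KO than in Sle1b GC cells in all 3 batches. It measured 29.1, 38.3 and 0.46 FPKM in Ifnar1KO GC replicates 1, 2 and 3, against 68.5, 63.8 and 12.3 FPKM in Sle1b GC. The log2 difference was -1.71 (95% interval -3.15 to -0.26; limma, adjusted p = 0.773, unadjusted 0.0244), and -0.96 (SE 0.42, adjusted p = 0.566) in batches 1 and 2 alone, so batch 3 carried much of it. There Il2rg stood at 2.91 reads per kb in Ifnar1KO GC and 46.3 in Sle1b GC. The T cell markers of these libraries summed to 28.3 and 74.0 FPKM, and their part in the difference was not tested. Il6ra was also lower in Ifnar1KO GC cells in all 3 batches, by -0.59 on the log2 scale (95% interval -1.79 to 0.61; adjusted p = 0.853). That made 2 of 9 members lower in every batch, against 12.8% of all genes.

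Il10ra and Cd40 lay the other way, higher in Ifnar1KO than in Sle1b GC cells in both batches in which they were detected. Il10ra measured 9.95 and 62.3 FPKM in Ifnar1KO GC replicates 1 and 2, against 6.17 and 9.54 FPKM in Sle1b GC, a log2 difference of 1.07 (95% interval -0.27 to 2.41; limma, adjusted p = 0.796) over 3 batches and 1.60 (SE 0.59, adjusted p = 0.531, unadjusted 0.0254) in batches 1 and 2. Cd40 measured 34.6 and 36.1 FPKM in Ifnar1KO GC, against 6.27 and 33.4 FPKM in Sle1b GC, so its difference of 0.80 (95% interval -0.57 to 2.17; adjusted p = 0.836) came from batch 1. The count of 2 of 9 members higher in both batches stands beside 15.5% of all genes.

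The other 5 members had no common direction in GC cells. Il21r differed by -0.81 (95% interval -1.96 to 0.35) on the log2 scale and Il4ra by -0.56 (95% interval -1.81 to 0.69), with the sign turning in 1 batch for each. Il6st differed by -0.99 (95% interval -2.67 to 0.69), Tnfrsf13b by 1.00 (95% interval -0.57 to 2.56) and Tnfrsf13c by 0.98 (95% interval -0.57 to 2.53). The limma adjusted p-values of these 5 were 0.804 to 0.859. The Tnfrsf13b difference was 0.24 (SE 0.65) with its highest locus alone, and that of Tnfrsf13c was -0.19 (SE 0.43) without batch 3, in which it measured 80.3 FPKM in Ifnar1KO GC and 7.14 FPKM in Sle1b GC. The median over the members was -0.56, against -0.25 for all genes.

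In non-GC cells the genotypes were closer. The log2 differences of the 9 members ran from -0.92 for Il2rg (95% interval -2.36 to 0.53) to 0.46 for Il6st (95% interval -1.22 to 2.14), with a median of 0.00 against 0.02 for all genes and a limma adjusted p of 1.00 for each. The Il2rg value came from batch 3, with 2.5 FPKM in Ifnar1KO non-GC and 20.2 FPKM in Sle1b non-GC, and it was -0.08 (SE 0.42) in batches 1 and 2 alone. These intervals are wide also without batch 3: for Il4ra that interval ran from -1.12 to 1.35 and for Tnfrsf13c from -1.08 to 0.90.

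**Figure D5:**
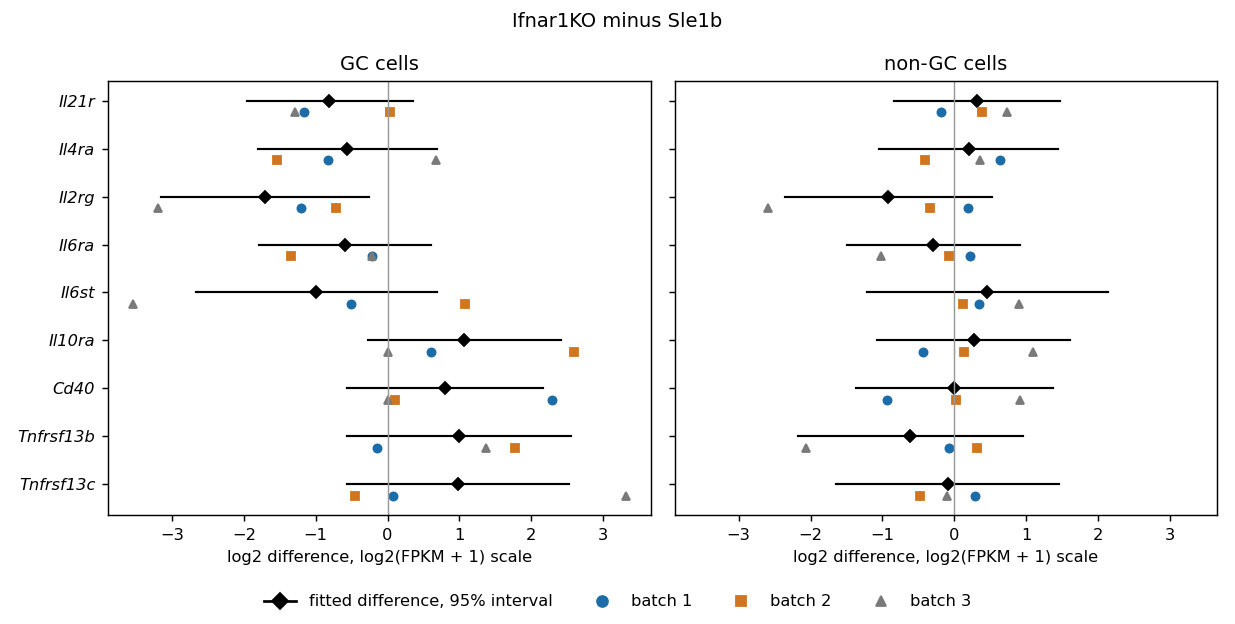
Log2 difference between Ifnar1KO and Sle1b for each receptor on the log2(FPKM + 1) scale, in GC cells on the left and non-GC cells on the right. Diamonds with lines are the limma estimate with its 95% interval, and the smaller symbols are the differences within batches. In GC cells Il2rg lies below 0 in all 3 batches; a symbol at 0 for Il10ra or Cd40 in batch 3 means that both libraries are listed at 0.

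Whether the GC difference itself depended on the labelled genotype was tested by the interaction. The estimates for the gamma chain family were all below 0, at -1.12 (SE 0.75) for Il21r, -0.76 (SE 0.81) for Il4ra and -0.79 (SE 0.94) for Il2rg, and those for the TNF receptor family above 0, at 0.80 (SE 0.89) for Cd40, 1.61 (SE 1.02) for Tnfrsf13b and 1.07 (SE 1.01) for Tnfrsf13c. None was past the threshold (limma, adjusted p = 0.994 for each of the 6). Most genes lay below 0 as well, with 5608 of 14595 above 0 and a median of -0.26. With centred libraries Il21r gave -0.80, Il4ra -0.44 and Il2rg -0.47, against an all-gene median of 0.06. Without batch 3 they gave -0.67, -1.30 and -0.89, against an all-gene median of -0.37. The TNF receptor family pattern did not hold without batch 3, where Tnfrsf13c gave -0.10 and Tnfrsf13b gave 0.69, or -0.24 on its highest locus.

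The partners of these receptors were followed in lists of ligands, other receptor chains, JAK and STAT transducers, TRAF and NF-kB transducers, inhibitors and target genes. Of the 8 ligands 1 passed the filter on low values, and the ligands named here were chosen after their values were seen. Il4, the ligand of Il4ra, was listed at 0 in all 12 libraries. Il21 reached 3.14 FPKM in the first Sle1b GC library and 14.2 FPKM in the third Sle1b non-GC library. Cd40lg, which T cells express, reached 16.5 FPKM in Sle1b GC replicate 1. None of 8 T cell markers was at 0 in that library, nor in Ifnar1KO non-GC replicate 1, where Cd40lg was listed at 0. The T cell markers summed to 26.7 FPKM in Sle1b GC replicate 1, within the 13.1 to 36.9 FPKM of batches 1 and 2.

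Of 18 other receptor chains 13 were tested, of 9 JAK and STAT transducers 9, of 16 TRAF and NF-kB transducers 16, of 9 inhibitors 8 and of 13 targets 13, and over all 3 batches 0 genes of any list were called in any comparison. Between GC and non-GC cells, 10 of the 13 other chains lay below 0 in Ifnar1KO and 9 in Sle1b, with medians of -0.55 in both genotypes. Il10rb and Ifnar2 share a locus and so a value, which is counted once. The JAK and STAT list had a median of -0.74 in Ifnar1KO (8 of 9 below 0) and -0.31 in Sle1b (6 of 9), the TRAF and NF-kB list -0.67 (11 of 16) and -0.71 (13 of 16), and the inhibitors -0.73 (7 of 8) and 0.02 (4 of 8). The targets had medians of 0.32 in Ifnar1KO and 0.28 in Sle1b. For all genes the medians were -0.40 in Ifnar1KO and -0.12 in Sle1b, with 68.2% of genes below 0 in Ifnar1KO and 56.1% in Sle1b.

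Over the 8 libraries of batches 1 and 2, after each batch mean was subtracted, Il4ra and Il2rg varied together (Pearson r = 0.95). So did Il4ra and Tnfrsf13c (0.93) and Il10ra and Tnfrsf13b (0.91), the last with Ifnar1KO GC replicate 2 high for both. Tnfrsf13b was summed over loci here and for its nearest genes below, and on its highest locus alone that library measured 9.55 FPKM. Il21r and Cd40 had an r of -0.76, with Sle1b GC replicate 1 the highest for Il21r and the lowest for Cd40. Among 7143 genes with a mean of at least 5 FPKM, the pattern most like Il2rg was that of Fcrl1, an Fc receptor-like protein of B cells (r = 0.996), and then Ufsp2 (0.994), and the pattern most like Il4ra was that of Eif3m, a translation initiation subunit (0.991), and then Gm25072 (0.984). The nearest to Il21r were 1700034P13Rik (0.993) and Adrbk1 (0.985), to Il10ra Zcchc2 (0.969), to Cd40 Rbm48 (0.977) and Nsmce2 (0.963), to Tnfrsf13b Zkscan3 (0.993) and Dusp11 (0.987), and to Tnfrsf13c Gatad1 (0.99) and Zfp397 (0.99). Il6ra was most like Atp6v0b (0.983) and Spcs3 (0.969), and Il6st most like Tmem68 (0.991) and Gm4596 (0.979). These values describe 8 libraries of 2 sorts and 2 batches, and every gene is measured in the same libraries, and the search over so many genes by itself favours high values.

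The authors' deposited tables, each comparing 1 library with 1 other of its batch, gave a q-value under 0.05 for a receptor in 2 tests, both in batch 3. In the authors' deposited table, Cd40 was 3.78 FPKM in Ifnar1KO non-GC replicate 3 and 0 in Sle1b GC replicate 3 (q = 0.0399). In the authors' deposited table, Tnfrsf13b was 0 FPKM in Ifnar1KO non-GC replicate 3 and 2.94 FPKM in Sle1b non-GC replicate 3 on its highest locus (q = 0.0407). These were 2 of 34 receptor tests in batch 3, where 11.3% of the authors' tests on named loci had such a q, and the authors' deposited tables gave 0 of 49 in batch 1 (1.13%) and 0 of 63 in batch 2 (0.879%). Such a test compares 2 libraries and not the conditions.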

How the data were processed

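Per the labels' protocols, a SMARTer ultra-low-input kit amplified the RNA of the sorted B cells, and Nextera XT was used for the libraries. The submitters' processing notes name Cuffdiff and Cufflinks 2.2.1, TopHat2 2.0.9 with Bowtie2 2.1.0, and CASAVA, and the build GRCm38 (mm10). Each of 17 tables deposited by the authors compared 1 library with another of the same batch, with FPKM for 506504 loci (45241 named) normalized by the authors within that table. The p-values and q-values in the tables are also the authors'.

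Loci of the same symbol were summed, symbols sharing a locus were kept together, and 9 failed items were left out, which left 43613. Within each batch the log2(FPKM + 1) ratios of the tables were combined by least squares into 1 value per gene and library, since each table was normalized on its own. The median absolute residual of this step was 0.0959, 0.0378 and 0.0287 log2 units in batches 1, 2 and 3. The direct table of Sle1b GC against Sle1b non-GC in batch 1 was not used here. Tables of different batches were normalized apart, which limits levels compared across batches but not the tests, whose block compares libraries within a batch. Strand-specific counting is not stated, and overlapping genes are therefore uncertain.

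The 14595 genes that reached 1 FPKM in 3 or more of the 12 libraries were tested with limma 3.58.1 in R 4.3.3 on log2(FPKM + 1), two-sided, with 4 group means, batch as a block, a variance trend on mean expression, 6 residual degrees of freedom, Benjamini-Hochberg adjustment and a threshold of 0.05. A fold change on the log2(FPKM + 1) scale understates the change of low genes, and an exact 0 can be a failed estimate. Depth was read from low values of loci of 800 to 2500 bp, of which 100% were whole multiples of 1 read within 0.1 read in each library; no count test was run on FPKM.

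The replicate number equals the batch in the names of the deposited tables, which pair libraries within a batch; this is the source of the block. As a check, deviations from group means correlated within a batch at 0.278, 0.399 and 0.525 or more in batches 1, 2 and 3, against at most 0.459, 0.459 and -0.286 with libraries of other batches. In batches 1 and 2 the lowest value within a batch was below the highest with other batches. The check therefore does not show the pairing there. Batch 3 stood apart as a whole, and deviations from a group mean cancel out over its libraries, so its values cannot decide it either. The highest correlation between 2 libraries was 0.918.

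The 9 members, the pathway and marker lists and the tests were chosen with earlier results of these data known. Named were the 9 members, Ifnar1, pathway genes with an adjusted p under 0.05 in any comparison over 3 batches or batches 1 and 2, and for each member the 2 genes of highest correlation over 8 libraries among genes with a mean of at least 5 FPKM. Some results that this rule selects are not reported here. Alternatives were a pseudocount of 0.1, no filter, no block, batches 1 and 2 alone, median centring, plain means over tables, leaving out each library, and, chosen after seeing the data, the highest locus of a symbol, with all batches and with batches 1 and 2. Promoters are RefSeq's and annotation GENCODE's, both of GRCm38. Over batches 1 and 2, 7 NK cell markers, a list without an entry above, summed to 0 to 11.3 FPKM in GC and 8.62 to 33.0 FPKM in non-GC libraries. The 8 erythroid and platelet markers summed to 0 to 92.5 FPKM in GC and 7.57 to 24.7 FPKM in non-GC libraries.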

Additional observations from a re-analysis of the deposited data

How the results depend on the processing

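No receptor passed the threshold in limma under any setting run. Of 360 receptor differences under the other settings 329 kept their sign and 31 did not, and of 540 with 1 library left out 525 kept it and 15 did not; the cause was not tested.

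The number of genes called between GC and non-GC cells was 3 in Ifnar1KO and 0 in Sle1b over all batches. It was 1 in Ifnar1KO with a pseudocount of 0.1 FPKM, without the filter or with centred libraries, 0 without the replicate block, and 38 in batches 1 and 2, also with the highest locus of a symbol. In Sle1b it was 1 with a pseudocount of 0.1 FPKM, 7 in batches 1 and 2 and 10 there with the highest locus. Leaving out 1 library gave 0 to 3 in Ifnar1KO, with 0 without Ifnar1KO GC replicate 3, Ifnar1KO non-GC replicate 2 or Ifnar1KO non-GC replicate 3, and 0 to 1 in Sle1b, in GC cells by genotype, in non-GC cells by genotype and for the interaction. The batches pair the libraries, and dropping the replicate block changed no other call.

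The median over the 9 receptors between GC and non-GC cells in Ifnar1KO was -1.44 with a pseudocount of 0.1 FPKM, -0.15 with centred libraries and -0.33 with the highest locus in batches 1 and 2, against -0.62, and ran from -0.89 to -0.52 in Ifnar1KO and from -1.20 to -0.70 in Sle1b with 1 library left out. In GC cells by genotype it was -0.19 in batches 1 and 2 and with centred libraries, -0.35 with the highest locus and -0.23 with the highest locus in batches 1 and 2, and ran from -0.56 to -0.01 with 1 library left out, where Sle1b GC replicates 2 and 3 gave -0.01 and -0.03. In non-GC cells it was 0.20 with the highest locus and ran from -0.13 to 0.23. For the interaction it was 0.02 with centred libraries and ran from -0.66 to 0.12.

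Signs turned in batches 1 and 2 for Il6ra (0.12) and Il6st (-0.02) between cell types in Sle1b, Il6st (0.03) and Cd40 (0.20) in Ifnar1KO, Il6st (0.29) and Tnfrsf13c (-0.19) in GC cells by genotype, Il6ra (0.08), Il10ra (-0.15) and Tnfrsf13b (0.12) in non-GC cells, and Il6st (0.05) and Tnfrsf13c (-0.10) for the interaction. The highest locus in batches 1 and 2 gave the same values except 0.06 for Il6ra in Sle1b, 0.01 for Tnfrsf13b in non-GC cells and -0.03 for Il6ra in non-GC cells, whose sign did not turn there, and turned Tnfrsf13b in GC cells (-0.23) and for the interaction (-0.24). Over all batches that locus turned Il6ra in Sle1b (0.22) and in non-GC cells (0.23). Both highest-locus settings were chosen after seeing the data. A pseudocount of 0.1 FPKM turned Tnfrsf13b in Ifnar1KO (0.51) and Cd40 in non-GC cells (0.11), and centring turned Tnfrsf13b (0.11) and Tnfrsf13c (0.14) in Ifnar1KO, Cd40 in non-GC cells (0.05) and Il6ra for the interaction (0.02).

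With 1 library left out, signs turned between cell types in Sle1b for Il6ra (-0.74 to 0.03) and Il6st (-0.07 to 1.37), and in Ifnar1KO for Il6st (-1.46 to 0.18), Tnfrsf13b (-1.17 to 0.50) and Tnfrsf13c (-1.08 to 0.09). They turned in non-GC cells by genotype for Il4ra (-0.13 to 0.62), Il6ra (-0.53 to 0.07), Il10ra (-0.15 to 0.73), Cd40 (-0.57 to 0.36), Tnfrsf13b (-1.26 to 0.20) and Tnfrsf13c (-0.35 to 0.19), and for the interaction for Il6ra (-0.66 to 0.12). Most receptors lay under 5 FPKM in batch 3, where 1 read on 1 kb was worth 0.158 to 0.266 FPKM, against 0.167 to 0.407 FPKM in batches 1 and 2.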
